A study of Mus musculus with 18 samples.

Results

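Mouse embryos with 1 wild-type copy of Tbx1 beside a strongly impaired or null copy were compared with embryos at full dose, to read what the loss of 1 copy does to transcript levels. The series holds 18 arrays of whole embryos at embryonic day 9.5, from 9 genotypes with 2 biological replicates each, all on a mixed 129SvEv and C57Bl/6 background. Arrays were chosen by their genotype labels alone, 8 of the 18. The heterozygotes were the 2 arrays of Neo/+ and the 2 arrays of +/-, and the full dose group was the 2 arrays of WT, which carry no mutant allele, and the 2 arrays of Neo2/+. Neo and Neo2 are alleles of reduced function and - is a null allele, so full dose here includes a genotype with 1 Neo2 allele. Every genotype other than WT in the comparison carries 1 altered Tbx1 allele in all cells, with no tissue-specific driver. The labels do not say whether 1 embryo or several went into a sample.

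The product of Tbx1 is a DNA-binding regulator of the T-box family, made in the pharyngeal arches and pouches, the otic vesicle and the second heart field, the pool of progenitors that lengthens the heart tube. It lies in the region deleted in DiGeorge syndrome, and the loss of 1 copy is enough to disturb the fourth pharyngeal arch arteries in mice. The tissues that express it are a small share of an embryo, and in RNA of whole embryos fewer cells of a type and less RNA per cell cannot be told apart.

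The array of +/- replicate 1 lay apart from the rest, with a median correlation of 0.975 against 0.991 to 0.995 for all arrays but it and replicate 1 of -/-, which had 0.985. The +/- replicates differed by more than 1 on the log2 scale at 2112 probe sets, against 107 in WT, 51 in Neo2/+ and 209 in Neo/+. Array medians lay between 5.80 and 5.82 at full dose and between 5.76 and 5.94 in the heterozygotes. By sex-linked genes the full dose group held 3 female samples and 1 male, and the heterozygotes 2 of each. Results are therefore given with and without +/- replicate 1, and a fit with embryo sex as a covariate is among the other settings. 

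Tbx1 itself was read at its only probe set. The signal, on the log2 scale throughout, was 6.54 and 6.63 in WT and 6.59 and 6.50 in Neo2/+. It was 6.35 and 6.24 in Neo/+ and 6.61 and 6.13 in +/-. Of the 4 heterozygote arrays, 3 lay below every full dose array, and +/- replicate 1 lay among them. The means were 6.57 ± 0.06 at full dose and 6.33 ± 0.20 in the heterozygotes (SD, n = 4 each), a difference of -0.23 with an SE of 0.10. That difference did not pass limma's test over all probe sets (adjusted p = 0.541; unadjusted p = 0.035), nor did those of Neo/+ (-0.27; adjusted p = 0.729) or +/- (-0.20; adjusted p = 0.498) alone. Neo/+ and +/- differed by -0.07 at this probe set (adjusted p = 0.901). Without +/- replicate 1 the difference was -0.35 (adjusted p = 0.371). No source used here says where the probes lie relative to the altered sequence, so the signal need not follow the loss of function.

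**Figure D1:**
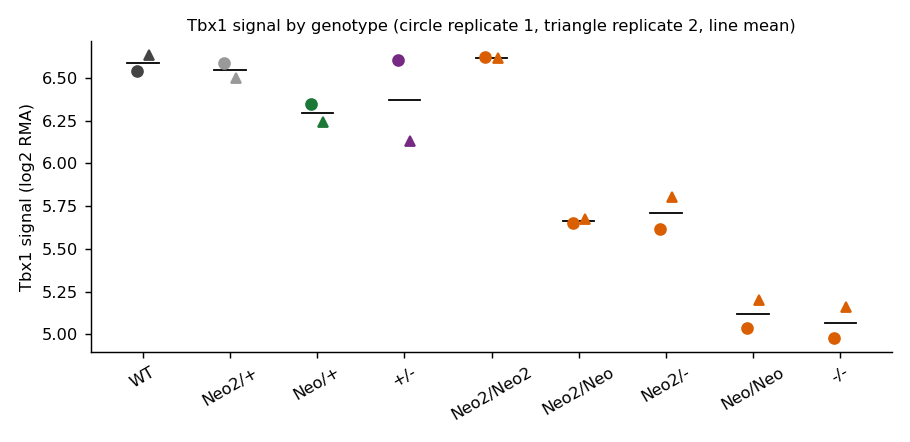
Tbx1 signal (log2, vertical axis) on each array by genotype, with circles for replicate 1, triangles for replicate 2 and lines for the mean of a genotype. Neo/+ lies at 6.35 and 6.24, below the 6.50 to 6.63 of WT and Neo2/+, and the +/- replicates lie apart at 6.61 and 6.13.

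Pooling both heterozygotes, 1 of 45037 probe sets passed an adjusted p of 0.05 in limma's test (0.00222%), and it was lower in the heterozygotes. No gene passed at its brightest probe set, the one used below for each of 18193 genes, although 1559 genes (8.57%) had an unadjusted p under 0.05. A dimmer probe set of Actb lay lower by 0.54 (adjusted p = 0.0618 in limma's test), by 0.61 in Neo/+ and by 0.46 in +/-. Its groups did not overlap. Among other settings, it was called with a filter on dim probe sets, with an intensity trend and with arrays centred on their medians. Without +/- replicate 1 its difference was -0.56. Neo/+ alone against full dose gave 53 called probe sets (0.118%), of which 16 rose and 37 fell. For +/- alone limma called 0 (0%), with 6097 probe sets at an unadjusted p under 0.05. At that unadjusted p, 6.04% of genes differed in Neo/+ (4.34% higher and 1.7% lower) and 14.8% in +/- (8.41% higher and 6.38% lower). Leaving out +/- replicate 1 gave 6 calls for the pooled comparison, 82 for Neo/+ and 0 for +/-. Leaving out +/- replicate 2, so that the array that stands apart was the only one of its genotype, gave 3518 calls for the pooled comparison and 6142 for +/-.

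The called probe set belongs to Smo, which encodes the signal-transducing receptor of the hedgehog pathway, and it is the dimmest of 3 for this gene. Its signal was 4.20 and 4.03 in WT, 4.74 and 4.80 in Neo2/+, 3.68 and 3.81 in Neo/+ and 3.72 and 3.67 in +/-. All 4 heterozygote arrays lay below all 4 full dose arrays, with Neo2/+ the highest. The signal fell by 0.72 (SE 0.07; adjusted p = 0.0146), but it lies at the low end of the range, where RMA values cannot be told from background, so no fold is given. The brightest Smo probe set differed by 0.17, in the other direction. The remaining one differed by -0.40, which rested on +/- replicate 1 (7.15 against 9.67 to 9.73 on the other heterozygote arrays), and without that array it differed by 0.24 (adjusted p = 0.469). The probe sets of Smo therefore disagree. In 9 of 19 other settings it was called again, and it was absent from the calls of the fits without WT replicate 1, Neo2/+ replicate 1, Neo2/+ replicate 2 or Neo/+ replicate 1, of that with WT alone as full dose and of 5 further settings.

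Genes that moved alike were defined as those with the same sign and an unadjusted p under 0.05 in both Neo/+ and +/- against full dose. Both differences share the 4 full dose arrays, so their count is a description and carries no p of its own. There were 243 such genes (1.34% of 18193), 204 higher and 39 lower in the heterozygotes, and their median size was 0.32. The definition also held without +/- replicate 1 for 93 of them (0.511% of genes), 74 higher and 19 lower. The rest are called below not stable without that array. That fit leaves 1 +/- array, so a gene can miss the definition with or without a clear change in its difference. The +/- difference went from -0.49 to -0.42 in Sc5d and from -0.26 to -0.09 in Mccc1. Without +/- replicate 1 and counted afresh, 167 genes moved alike and 63.5% of them were higher, against 84% in the full comparison. At the limit of the definition, B9d1 lay just inside with a larger p of 0.0496 and Sh3bgrl2 just outside with 0.0502. Complete separation of the 4 heterozygote from the 4 full dose arrays was seen in 1139 of all genes (6.26%, with 5.08% higher and 1.18% lower). It was seen in 179 of the 243 (0.984% of genes). The 243 were picked on these same arrays, so the definition itself favoured separation among them.

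Several of the genes that moved alike and lay lower belong to cholesterol synthesis, and they are described first. Cholesterol is built from acetyl units through mevalonate, isoprenoids, squalene and lanosterol. SREBP transcription factors, released from the endoplasmic reticulum when sterols are low, switch the whole chain on, and Insig1 both holds them back and is one of their targets. Cholesterol is also attached to hedgehog proteins and is a main component of cell membranes. A list of 24 sterol synthesis genes, of which 19 were measured, was drawn up after these values were seen, so it receives no test and its counts are not independent evidence.

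Promoters of 4 of these genes are shown because 1 short motif was shared by all members with a promoter in the RefSeq set (build GRCm38.p6). Each run holds the 250 bases before the annotated start of the transcript, 5′ to 3′ on the strand of the gene, with CCAAT or its reverse complement ATTGG in capitals. Insig1 is at chr5:28071162-28071411 on the plus strand, Hmgcs1 at chr13:119690101-119690350 on the plus strand, Msmo1 at chr8:64733579-64733828 on the minus strand and Tm7sf2 at chr19:6067851-6068100 on the minus strand.
Insig1: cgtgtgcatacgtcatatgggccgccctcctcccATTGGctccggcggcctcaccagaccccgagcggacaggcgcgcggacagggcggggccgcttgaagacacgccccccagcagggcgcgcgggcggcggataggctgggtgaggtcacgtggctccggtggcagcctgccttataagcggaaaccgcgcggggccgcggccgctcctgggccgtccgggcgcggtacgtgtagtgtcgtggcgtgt
Hmgcs1: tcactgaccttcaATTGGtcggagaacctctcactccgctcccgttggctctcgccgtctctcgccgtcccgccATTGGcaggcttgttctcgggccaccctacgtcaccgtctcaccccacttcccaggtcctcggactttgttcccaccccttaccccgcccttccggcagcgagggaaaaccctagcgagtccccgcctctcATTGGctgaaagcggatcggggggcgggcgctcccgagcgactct
Msmo1: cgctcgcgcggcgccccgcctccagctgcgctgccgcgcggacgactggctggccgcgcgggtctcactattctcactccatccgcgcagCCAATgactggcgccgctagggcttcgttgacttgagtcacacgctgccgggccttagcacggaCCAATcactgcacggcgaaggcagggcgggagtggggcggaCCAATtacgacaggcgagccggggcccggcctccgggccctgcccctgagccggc
Tm7sf2: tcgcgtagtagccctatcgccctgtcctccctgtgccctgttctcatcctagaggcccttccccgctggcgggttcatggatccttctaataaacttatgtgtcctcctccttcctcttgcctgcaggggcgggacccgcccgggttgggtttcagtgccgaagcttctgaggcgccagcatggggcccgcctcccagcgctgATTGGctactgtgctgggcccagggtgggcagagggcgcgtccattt
CCAAT is the motif bound by the factor NF-Y, which is known to act with SREBP at sterol genes. Hmgcs1 and Msmo1 each held it 3 times in these runs, and Insig1 and Tm7sf2 each held it 1 time. With 50 further bases after the start included, all 15 of the 15 measured sterol genes in the set held CCAAT on either strand, against 41.1% of 27025 genes and 37.4% of promoters of the same length. Among all genes that moved alike, 72 of 180 held it (40.0%), a share near that of all genes. In all 9 motifs were searched on both strands, and several of them overlap. TCACNCCAC, the core of a sterol regulatory element with 1 open base, was in 1 of the 15 (Hmgcs1) against 1.44% of all genes. TCACCCCAC and CACCCCAC, which lie within or overlap it, were also in 1 of 15 each, against 0.614% and 3.30% of all genes. CCGCGCCAC was in 1 of 15 against 0.636%. TCACCCCAC preceded by A, TCACNCGAG and TCACGTGA were in 0 of 15, against 0.0999%, 0.463% and 1.12%. AGGTGTGA, the core bound by T-box factors, was in 0 of 15 and in 1 of 180 genes that moved alike, against 1.48% of all genes.

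Of the 19 measured sterol genes 18 lay lower in the heterozygotes and 0 passed the adjusted threshold. An unadjusted p under 0.05 in the lower direction was reached by 12, against 1.69% of all genes. Complete separation of the 4 heterozygote from the 4 full dose arrays was seen in 9. Over all genes 6.26% separated in either direction and 1.18% in the lower. The list's median difference was -0.42 in the pooled comparison, in Neo/+ and in +/- alike, beside 0.04 over all genes. The definition of moving alike held for 8, against 1.34% of all genes (0.214% in the lower direction). For Insig1, Fdps and Tm7sf2 it held also without +/- replicate 1, a fit in which the list's median was -0.40.

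Insig1, the sterol-sensing anchor of the SREBP complex, had a signal of 8.63 and 8.23 in WT and 8.66 and 8.84 in Neo2/+. In Neo/+ it had 8.05 and 7.81, and in +/- 7.58 and 7.86. All 4 heterozygote arrays lay below the lowest full dose array, WT replicate 2. The means were 8.59 ± 0.26 and 7.82 ± 0.19 (SD, n = 4 each), a difference of -0.76 (SE 0.13, 1.70-fold; adjusted p = 0.146), and -0.69 without +/- replicate 1 (adjusted p = 0.321). Fdps, which makes farnesyl diphosphate, had 11.51, 11.13, 11.51 and 11.40 on the full dose arrays in the order above and 10.66, 10.80, 10.83 and 10.80 in the heterozygotes. Its groups did not overlap, and the heterozygotes lay close together. The difference was -0.61 (SE 0.14; adjusted p = 0.341). Tm7sf2, a sterol C14 reductase, had 7.69 and 7.44 in WT, 7.85 and 7.98 in Neo2/+, 7.41 and 7.06 in Neo/+ and 7.49 and 7.29 in +/-. Here +/- replicate 1 lay above WT replicate 2, so the groups overlapped. The difference was -0.43 (SE 0.10; adjusted p = 0.341).

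Hmgcs1, which makes the HMG-CoA that is reduced to mevalonate, had 12.59 and 12.21 in WT, 12.57 and 12.61 in Neo2/+, 12.10 and 11.91 in Neo/+ and 11.70 and 12.04 in +/-. WT replicate 2 again was the lowest full dose array, and the groups did not overlap. The difference was -0.56 (SE 0.14, 1.47-fold; adjusted p = 0.370), and 4 further Hmgcs1 probe sets differed by -0.44 to -0.60. Msmo1, which removes methyl groups from lanosterol products, differed by -0.61 (SE 0.16; adjusted p = 0.396) and Idi1, the isopentenyl diphosphate isomerase, by -0.51 (SE 0.12; adjusted p = 0.361). Sc5d, which introduces a double bond late in the chain, differed by -0.67 (SE 0.14; adjusted p = 0.247). In these 4 genes every heterozygote array lay below every full dose array, and none of the 4 was stable without +/- replicate 1. The other probe sets differed by -0.50 for Msmo1, -0.37 for Idi1 and -0.33 and -0.05 for Sc5d. The squalene synthase gene Fdft1 (-0.41) moved alike with overlapping groups. The mevalonate kinase gene Mvk, at -0.74, rested on +/- replicate 1, where its signal was 6.33 against 7.93 to 8.01 on the other heterozygote arrays, and without that array its difference was -0.34. Ebp, at 0.08, was the member on the other side.

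**Figure D2:**
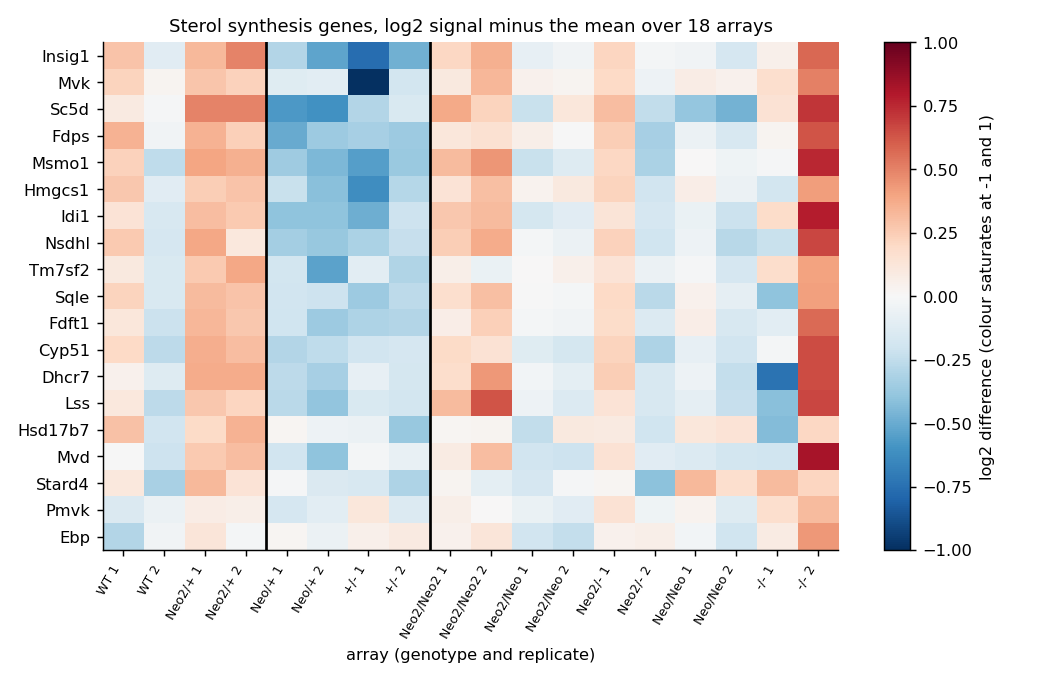
Signal of the 19 sterol synthesis genes (rows) on all 18 arrays (columns), as the log2 difference from each gene's mean, with red above and blue below the mean and the colour saturated at -1 and 1. The black lines enclose the 4 heterozygote arrays, where most cells are blue; WT replicate 2 is also pale blue, and -/- replicate 2 is the reddest column.

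The full dose arrays were not alike in these genes. The mean deviation of the 19 genes from their means over the 18 arrays was 0.14 and -0.15 in WT, 0.30 and 0.27 in Neo2/+, -0.24 and -0.32 in Neo/+ and -0.34 and -0.24 in +/-. The heterozygotes did not overlap full dose, and WT replicate 2 lay nearer to them than to Neo2/+. With WT alone as full dose the list's median was -0.26 with 6 of 19 at an unadjusted p under 0.05 in the lower direction, and with Neo2/+ alone it was -0.58 with 16 of 19. In all 19 other settings the median was negative, and only the fit without +/- replicate 2 called members (7). Outside the comparison the deviation was 0.16 and 0.24 in Neo2/Neo2, -0.09 and -0.05 in Neo2/Neo and 0.17 and -0.18 in Neo2/-. It was -0.01 and -0.14 in Neo/Neo and -0.07 and 0.55 in -/-. The arrays of Neo/Neo and -/- thus lay above those of both heterozygotes in these genes, and the part of Tbx1 dose was not tested.

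Genes of fatty acid synthesis and the SREBP factors themselves, a further list drawn up after values were seen, had a median difference of -0.15 over 20 genes, with 2 at an unadjusted p under 0.05 in the lower direction (against 1.69% of all genes). Idh1, the cytosolic isocitrate dehydrogenase that supplies NADPH for lipid synthesis, had 10.99 and 10.68 in WT, 11.10 and 11.02 in Neo2/+, 10.63 and 10.39 in Neo/+ and 10.32 and 10.52 in +/-. Its groups did not overlap, and it was stable without +/- replicate 1. The difference was -0.49 (SE 0.10; adjusted p = 0.282), and the other Idh1 probe set differed by -0.40. Elovl6, which elongates fatty acids, differed by -0.47. The genes of the regulators lay close to full dose, with -0.03 for Srebf1, -0.15 for Srebf2 and 0.00 for Scap.

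Of the other lower genes, Rbm28, which encodes a nucleolar RNA-binding protein, had 9.91 and 9.84 in WT, 9.92 and 10.03 in Neo2/+, 9.28 and 9.45 in Neo/+ and 9.52 and 9.62 in +/-. The groups did not overlap and the difference was -0.46 (SE 0.09; adjusted p = 0.241), whereas the other Rbm28 probe set differed by 0.30. Rpl27a, a protein of the large ribosomal subunit, differed by -0.47 (adjusted p = 0.331), and Arrdc2, an arrestin-domain protein, by -0.42 (adjusted p = 0.287). Both separated the groups and were stable without +/- replicate 1. Mccc1, an enzyme of leucine breakdown, differed by -0.49 (adjusted p = 0.146) and Septin3, a septin of neurons, by -0.37 (adjusted p = 0.341). Neither was stable without that array. Besides these, the 19 stable lower genes were Glra1 (-0.81), Nckap5 (-0.67), Gm4432 (-0.56), Crmp1 (-0.49), Rab33a (-0.43), Pak7 (-0.39), Ints6 (-0.39), Nxpe2 (-0.37), Zic1 (-0.37), Vmn1r58 (-0.33), Rraga (-0.30) and 4930474N09Rik (-0.25). Glra1 (a glycine receptor subunit), Crmp1 (a mediator of axon guidance) and Zic1 (a transcription factor of the dorsal neural tube) are known from the nervous system.

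Most genes that moved alike lay higher in the heterozygotes. The same held among all genes with an unadjusted p under 0.05 in the pooled comparison, 1252 higher and 307 lower. Popdc3, a membrane protein of the Popeye family found in muscle, had 3.87 and 3.74 in WT, 4.03 and 3.95 in Neo2/+, 4.28 and 4.44 in Neo/+ and 4.43 and 4.41 in +/-. All heterozygote arrays lay above all full dose arrays. The difference was 0.49 (SE 0.08, 1.41-fold; adjusted p = 0.146). Trim65, a ubiquitin ligase, had 4.66 and 4.76 in WT, 4.45 and 4.60 in Neo2/+, 5.0 and 5.06 in Neo/+ and 5.02 and 4.99 in +/-. The 4 heterozygote arrays were nearly equal and above full dose, with a difference of 0.40 (SE 0.07; adjusted p = 0.146). Both genes lie near the low end of the signal range, where RMA values cannot be told from background.

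Several of the higher genes were well expressed, but Elmo3 and Cldn11, also given here, had full dose means of only 5.22 and 4.34. Cldn11 lay below Trim65 (4.62) at full dose, so the same limit holds for it. Slc35d1, a nucleotide sugar transporter needed for chondroitin sulfate, had 7.44 and 7.25 in WT, 7.48 and 7.57 in Neo2/+, 7.75 and 7.64 in Neo/+ and 7.90 and 7.86 in +/-, a difference of 0.36 (SE 0.06; adjusted p = 0.213). Ttc19, an assembly factor of mitochondrial complex III, had 7.02 and 7.23 in WT, 7.21 and 7.17 in Neo2/+, 7.62 and 7.62 in Neo/+ and 7.63 and 7.41 in +/-, a difference of 0.41 (SE 0.07; adjusted p = 0.213). In both genes the groups did not overlap. Elmo3 (engulfment and cell motility) differed by 0.46, Cldn11 (a claudin of tight junctions) by 0.47, Lratd2 by 0.37 and Arid4a (a chromatin protein that binds RB) by 0.36, each with an adjusted p of 0.241. All of these were stable without +/- replicate 1, and their groups did not overlap. In Arid4a the other probe sets differed between the heterozygotes, with 0.01 and -0.21 in Neo/+ against 0.71 and 0.67 in +/-. B9d1, a protein of the ciliary transition zone, differed by 0.46, with 0.70 in Neo/+ against 0.21 in +/-. It was not stable, although its +/- difference without +/- replicate 1, on the 1 array left, was 0.20.

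**Figure D3:**
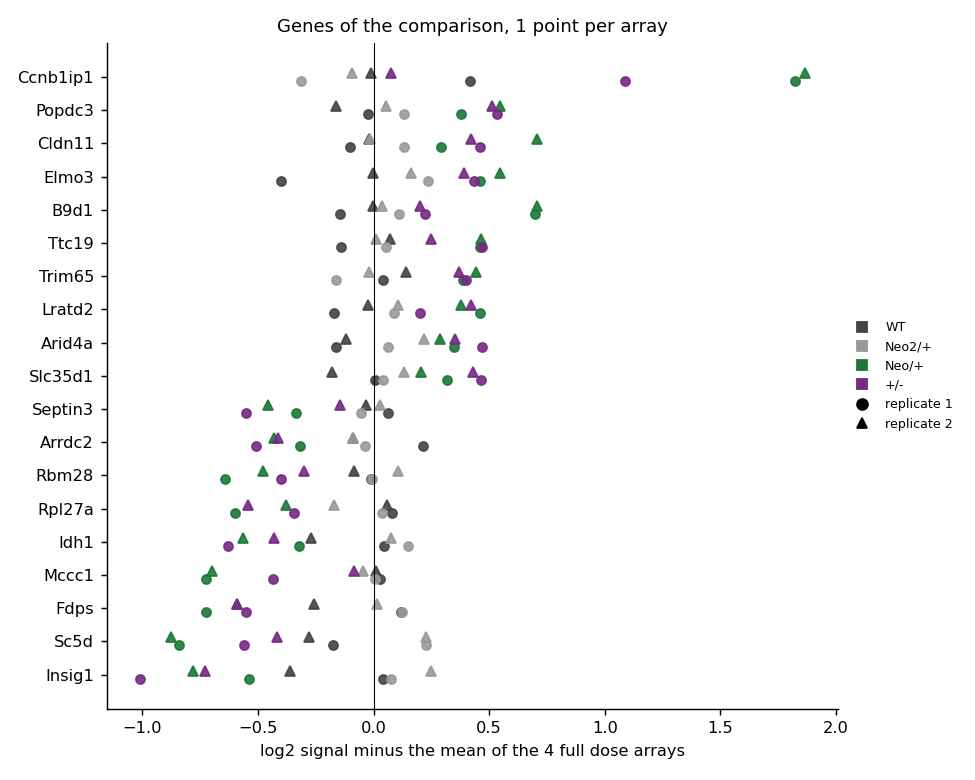
Log2 signal minus the mean of the 4 full dose arrays (horizontal axis) for 19 of the 20 genes named for the pooled comparison, with 1 point per array, coloured by genotype and shaped by replicate. Rpgrip1 is left out because its range would compress the others. Insig1, Fdps and Sc5d lie to the left in all 4 heterozygote arrays, Popdc3 and Trim65 to the right, and Ccnb1ip1 is high mainly in Neo/+.

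Other stable higher genes, chosen here after their values were seen, include developmental regulators. Bmp5, a BMP ligand, had 7.48 and 7.39 in WT, 7.44 and 7.47 in Neo2/+, 7.83 and 7.77 in Neo/+ and 7.80 and 7.78 in +/-. The groups did not overlap, and the difference was 0.35 in each heterozygote (adjusted p = 0.341 pooled). Osr1, a transcription factor of intermediate and lateral mesoderm, also differed by 0.35 (adjusted p = 0.417). Apela, a peptide ligand of the apelin receptor in heart development, differed by 0.45 (adjusted p = 0.341). The metalloreductase genes Steap1, Steap2 and Steap4 differed by 0.41, 0.35 and 0.37, and all 3 were stable without +/- replicate 1. The largest stable difference in this direction was that of Ndufs5, a subunit of mitochondrial complex I, at 0.61 (adjusted p = 0.443) with overlapping groups.

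Rpgrip1 and Ccnb1ip1 met the definition but did not separate the groups. Rpgrip1, known as a ciliary protein of photoreceptors, had 11.58 and 11.47 in WT, 11.53 and 11.58 in Neo2/+, 6.87 and 6.94 in Neo/+ and 6.24 and 11.50 in +/-. The signal was therefore at the full dose level on 1 of the 2 +/- arrays and far lower on the other 3 heterozygote arrays. The pooled difference was -3.65 (SE 0.76; adjusted p = 0.258), and without +/- replicate 1 it was -2.34 (adjusted p = 0.000511), an estimate then carried by Neo/+ alone. Without +/- replicate 2 it was -4.97. Outside the comparison Neo/Neo had 6.49 and 6.51 while -/- had 11.66 and 11.57. The part of Tbx1 dose in this signal was not tested. The 3 dimmer Rpgrip1 probe sets, with full dose means of 2.93 to 3.71, differed by at most 0.08. Ccnb1ip1, a regulator of meiotic crossing over, had 4.23 and 3.80 in WT, 3.49 and 3.71 in Neo2/+, 5.63 and 5.67 in Neo/+ and 4.89 and 3.88 in +/-. It rose in Neo/+ by 1.84 (SE 0.24; adjusted p = 0.0104) and differed by 0.58 in +/- (adjusted p = 0.331).

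Neo/+ was also compared with full dose on its own. Of its 53 called probe sets 14 were the brightest of their gene. Pttg1, the securin that holds sister chromatids together, had 11.43 and 11.35 in WT, 11.39 and 11.40 in Neo2/+, 12.75 and 12.73 in Neo/+ and 11.25 and 11.29 in +/-. It rose in Neo/+ by 1.35 (SE 0.19, 2.55-fold; adjusted p = 0.0169), and its 2 other probe sets differed by 1.08 and 1.71. B9d1 rose by 0.70 (SE 0.10; adjusted p = 0.0126). At the brightest probe sets the lower calls with the smallest p were 2010315B03Rik, a zinc finger gene, which fell by 1.97 (adjusted p = 0.0020), Ang, the ribonuclease angiogenin, which fell by 1.54 (adjusted p = 0.0041), and 1500015A07Rik, which fell by 1.47 (adjusted p = 0.0104). All 3 had +/- means within 0.12 of full dose. The smallest p of the comparison belonged to a dimmer probe set of Tia1, an RNA-binding protein of stress granules, with 7.95 and 8.0 in WT, 8.88 and 8.12 in Neo2/+, 4.15 and 4.26 in Neo/+ and 8.97 and 7.49 in +/-. Both Neo/+ arrays lay far below all the others, and the signal fell in Neo/+ by 4.03 (SE 0.33; adjusted p = 0.000999). The brightest Tia1 probe set differed by 0.03 in Neo/+, so the probe sets disagree. Dimmer probe sets of Lztfl1 (-2.91), Prdx2 (-2.22) and Ndel1 (-2.16) were also called (adjusted p = 0.00197 each), where the brightest of each gene differed by at most 0.07. Without Neo/+ replicate 1 all 6 genes named for Neo/+ (Ccnb1ip1, B9d1, Pttg1 and these 3) missed the threshold, with adjusted p-values of 0.0704 to 0.263, and without Neo/+ replicate 2 all but 2010315B03Rik and Ang did. Pttg1 also missed it without any 1 of the full dose arrays (0.0514 to 0.0791), and B9d1 without Neo2/+ replicate 2 (0.0733).

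Since no probe set passed in +/- alone, its genes are given by the order of their p-values. First came Acrv1, an acrosomal protein (0.60), Slc35d1 (0.45) and Popdc3 (0.52) in the higher direction, and Insig1 (-0.87), the protease gene Ctsf (-0.83) and Hsd17b11 (-0.41) in the lower, all at an adjusted p of 0.311. Acrv1 and Hsd17b11 lay within 0.03 of full dose in Neo/+. Ctsf had 6.74 and 6.60 in Neo/+ and 5.58 and 5.0 in +/-, on opposite sides of full dose (6.06 to 6.26).

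Neo/+ and +/- were compared directly to find where the heterozygotes differ; the full dose arrays enter this contrast only through the estimate of the spread. The test called 60 probe sets (0.133%), 13 higher and 47 lower in Neo/+, 20 of them the brightest of their gene. Thg1l, the enzyme that adds a guanylate to histidine tRNA, had 8.11 and 8.09 in Neo/+ and 4.97 and 6.03 in +/-, beside 6.11 to 6.30 at full dose. It was higher in Neo/+ by 2.60 (SE 0.36; adjusted p = 0.0169). Supt16, a subunit of the histone chaperone FACT, had 11.97 and 12.17 in Neo/+ and 10.80 and 9.95 in +/-, beside 10.30 to 10.56 at full dose. It was higher in Neo/+ by 1.69 (SE 0.28; adjusted p = 0.0397). In both genes Neo/+ lay far above full dose and the +/- replicates disagreed with each other. Amacr, a racemase of branched fatty acid and bile acid metabolism, had 5.53 and 5.20 in Neo/+ and 7.44 and 7.23 in +/-, beside 6.94 to 7.22 at full dose. Neo/+ differed from +/- by -1.97 in Amacr (SE 0.27, adjusted p = 0.0159), the largest amount among the lower calls at brightest probe sets. Larger differences were called at dimmer probe sets of Tia1 (-4.03), Lztfl1 (-2.83), Prdx2 (-2.60) and Ndel1 (-2.24).

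The remaining named genes were higher in Neo/+ (Gm38983 by 1.52, 6820431F20Rik by 1.50 and Pttg1 by 1.47) or lower (2010315B03Rik, Ang, the kinase gene Stk25 and the zinc finger gene Zfp40, by -1.85, -1.51, -1.45 and -1.39), with adjusted p-values between 0.0115 and 0.0475. Without Neo/+ replicate 1 all 10 missed the threshold (adjusted p-values of 0.104 to 0.363), without Neo/+ replicate 2 all but 2010315B03Rik did, and without +/- replicate 1 all but 2010315B03Rik and Supt16 did. Supt16, Stk25 and Zfp40 also missed it without any 1 full dose array (0.0596 to 0.0752), 6820431F20Rik without either WT array (0.0572) and Pttg1 without either Neo2/+ array (0.0561). Without +/- replicate 1 this comparison called 14 probe sets, and without +/- replicate 2 it called 5775.

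**Figure D4:**
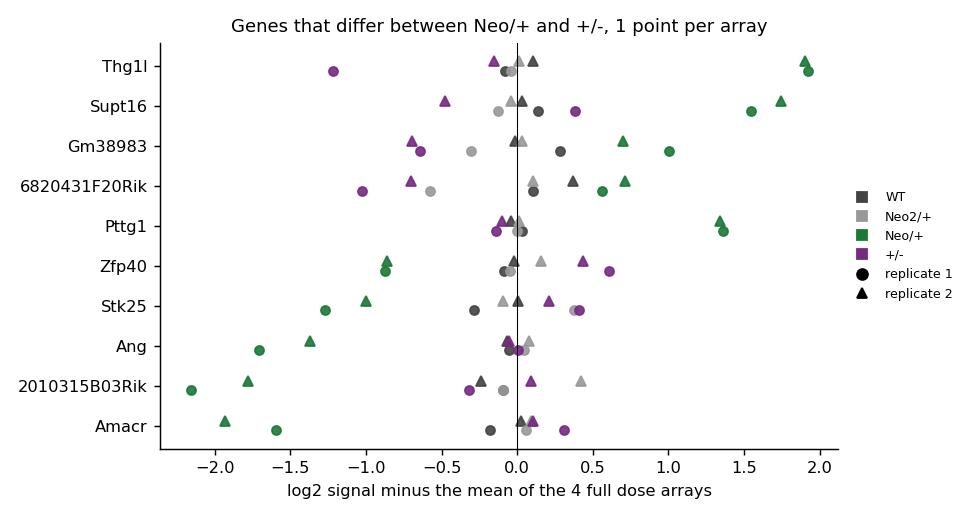
Log2 signal minus the mean of the 4 full dose arrays (horizontal axis) for the 10 genes named for Neo/+ against +/-, with 1 point per array, coloured by genotype and shaped by replicate. Both Neo/+ arrays of Pttg1, Ang and Amacr lie apart while +/- lies on or near the full dose arrays, whereas Gm38983, 6820431F20Rik and Zfp40 lie on opposite sides of full dose in Neo/+ and +/-.

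Some of the genes with large differences in Neo/+ lie near each other in the order of protein-coding genes of GRCm38.p6; these pairs were noticed after the values were seen, and how often called genes lie this close in general was not tested. Rpgrip1 lies beside Supt16, Ang lies 14 genes from Ccnb1ip1 and 29 from Supt16, and Pttg1 lies 14 genes from Thg1l. Lztfl1, one of those called at a dimmer probe set, lies 5 genes from Lars2 and 11 from 2010315B03Rik. The 129SvEv and C57Bl/6 strains were mixed in these embryos, and the part of that mixture in these differences was not tested.

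Cell types and pathways known for Tbx1 showed small median differences and no called member at the brightest probe sets. The 44 measured genes linked to Tbx1 had a median of 0.04, equal to that of all genes, with 1 at an unadjusted p under 0.05. The 33 chromosomal neighbours of Tbx1, including those of the region deleted in DiGeorge syndrome, had a median of 0.02, with Gnb1l at 0.25 and P2rx6 at -0.22 as the members under that p. The 15 measured T-box genes, Tbx1 included, had a median of 0.02. Pharyngeal endoderm and pouch genes had 0.03, FGF signalling genes 0.04 and cranial mesoderm genes 0.03, of which the first and last changed sign without +/- replicate 1 (both -0.01). In second heart field genes 18 of 20 differences were positive, with a median of 0.12, 2 under the unadjusted p in the higher direction (against 6.88% of all genes) and 4 that separated the groups. Over all genes 11315 of 18193 differences were positive, and 6.26% separated the groups in either direction. Gata4, a transcription factor of heart and foregut, had 6.24 and 6.43 in WT, 6.36 and 6.37 in Neo2/+, 6.96 and 6.69 in Neo/+ and 7.06 and 6.69 in +/-. Its groups did not overlap, and the difference was 0.50 (adjusted p = 0.495), not stable without +/- replicate 1.

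Neuronal genes showed the largest median of these lists. All 22 measured genes of neurons and proneural cells lay lower, with a median of -0.34 (-0.30 in Neo/+ and -0.39 in +/-, and -0.37 without +/- replicate 1), and 4 reached an unadjusted p under 0.05. Over all genes 6878 of 18193 lay lower, and 1.69% reached that p in the lower direction. Elavl3, an RNA-binding protein of neurons, had 8.50 and 8.72 in WT, 8.28 and 8.51 in Neo2/+, 8.19 and 7.67 in Neo/+ and 8.24 and 7.75 in +/-. The groups did not overlap, but Neo/+ replicate 1 and +/- replicate 1 lay close to full dose. The difference was -0.54 (adjusted p = 0.508). The neurofilament-related gene Ina differed by -0.62 and Stmn2, a regulator of microtubules in axons, by -0.80. The mean deviation of the list from the mean of the 18 arrays was 0.05 to 0.22 at full dose, 0.07 and -0.50 in Neo/+ and -0.23 and -0.34 in +/-. Neo/+ replicate 1 therefore lay among the full dose arrays. Outside the comparison the deviation ran from -0.71 in Neo2/Neo2 to 0.80 in Neo2/Neo. Tailbud and somite genes had a median of 0.15 (0.10 in Neo/+ and 0.22 in +/-), and primitive erythroid and yolk sac genes -0.09 and -0.13. The mean deviation of the tailbud list was -0.20 and -0.03 in WT and -0.03 on both Neo2/+ arrays. It was -0.03 and 0.02 in Neo/+, whose replicate 1 lay among the full dose arrays, and 0.06 and 0.15 in +/-. The erythroid median was 0.21 with Neo2/+ alone as full dose. The mean deviation of that list was 0.33 and 0.20 in WT but -0.24 and -0.31 in Neo2/+. For yolk sac genes it was -0.58 on Neo/+ replicate 2, against 0.00, -0.03 and -0.18 on the other heterozygote arrays. The part of embryo stage or of attached tissue in the neuronal values was not tested. Genes of placenta and maternal decidua stayed at a mean level of 4.91 to 5.14 on all 8 arrays.

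**Figure D5:**
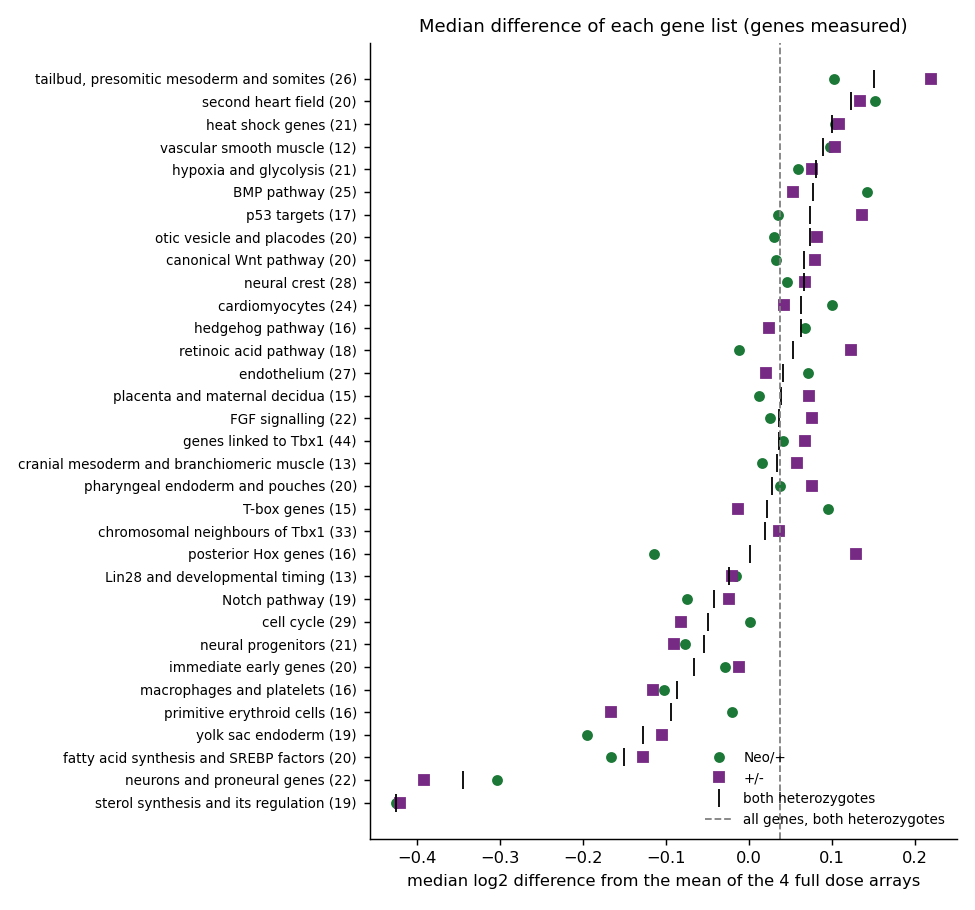
Median log2 difference from the mean of the 4 full dose arrays for each gene list, with the number of genes measured in parentheses, for Neo/+ (circles), +/- (squares) and both (ticks); the dashed line is the median of all genes, 0.04. Sterol synthesis and neuronal genes lie to the left in both heterozygotes, and all other lists lie between -0.15 and 0.15 in the pooled comparison.

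In signalling lists, single members separated the groups. Aldh1a3, which makes retinoic acid, had 6.19 and 6.25 in WT, 6.49 and 6.07 in Neo2/+, 6.87 and 7.08 in Neo/+ and 7.20 and 7.31 in +/-. The groups did not overlap, and the difference was 0.86 (adjusted p = 0.456), with 0.46 and 0.25 at its other probe sets. Rdh10, the retinol dehydrogenase upstream of it, differed by 0.29 (adjusted p = 0.450) and moved alike, but was not stable without +/- replicate 1. Aldh1a3 did not meet the definition of moving alike. Hey2, a Notch target of arteries and heart, differed by 0.29 (adjusted p = 0.412) and was stable. Lin28a, the developmental timing factor, differed by 0.75 at its brightest probe set and by -0.71 at the other, so no direction can be given for it. Among the 17 measured p53 targets 4 reached an unadjusted p under 0.05, all higher (against 6.88% of all genes in that direction). They included Perp at 0.34, Eda2r at 0.42 and Ccng1 at 0.39. The list's median was 0.03 in Neo/+ and 0.14 in +/-, beside 0.04 and 0.05 over all genes. Its mean deviation was -0.18 and -0.12 in WT and -0.05 and -0.01 in Neo2/+. In Neo/+ it was -0.02 and -0.07, within the range of full dose, and in +/- 0.10 and 0.03. Of its members 2 moved alike (against 1.34% of all genes), neither stable without +/- replicate 1.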

How the data were processed

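Whole embryos of embryonic day 9.5 were measured on Affymetrix mouse expression arrays, with cRNA made from 6 ug of total RNA. As deposited by the authors, each value is a log2 summary of a probe set. The submitters' processing notes name affy and RMA without versions. RMA subtracts background, equalises the distributions of the arrays and summarises the probes of a set by median polish, so it carries no detection call. Precision is limited by the number of arrays. The values were used as deposited.

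All 18 arrays were fitted as 9 genotype means with limma 3.58.1 in R 4.3.3 (lmFit and eBayes, two-sided, 9 residual and 3.63 prior degrees of freedom), and p-values were adjusted by Benjamini-Hochberg over 45037 probe sets. Standard errors (SE) are the moderated ones. Contrasts were the mean of Neo/+ and +/- minus the mean of WT and Neo2/+, each heterozygote alone, and Neo/+ minus +/-. The annotation gave 34945 probe sets a single gene symbol, 932 several and 9160 none; 34741 matched RefSeq gene IDs, and 18193 genes were read at the probe set with the highest mean. Genes were named as follows: up to 10 per direction past the threshold in the pooled contrast, filled with genes that moved alike in order of p; 3 per direction for each heterozygote; 5 for Neo/+ against +/-; up to 4 of smallest p per gene list. Sex markers served only to call sex. The members and lists were chosen with earlier results of these data known, and the sterol, fatty acid and heat shock lists after the values were seen. On simulated data with 45037 probe sets, 56.7% of changes of 0.5, 92.5% of changes of 1 and 97% of changes of 2 (log2) were recovered for the pooled contrast, with 8 false calls. Of those probe sets 200 were changed, and the shares need not hold for the real arrays. There, larger pooled differences missed the threshold, among them those of Ccnb1ip1 (1.21, adjusted p = 0.146) and Rpgrip1 (-3.65, adjusted p = 0.258). Replicate numbers did not pair the samples: deviations of same-numbered samples correlated between -0.14 and 0.11 over the 6 pairs of genotypes. Alternatives were each array left out, the 8 arrays alone, both arrays that stand apart left out, sex, replicate block, array weights, a filter on dim probe sets, an intensity trend, median centring, and WT or Neo2/+ alone as full dose.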

Additional observations from a re-analysis of the deposited data

Results flagged for a closer look

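In 74 groups of 4 arrays examined, 5 genes had 1 array far from the other 3; chance flags about 1 in 20 groups. Among the heterozygotes these were Ttc19, at 7.41 on +/- replicate 2 against 7.62 to 7.63, Rpgrip1, at 11.50 on +/- replicate 2 against 6.24 to 6.94, and Mvk, at 6.33 on +/- replicate 1 against 7.93 to 8.01. Among the full dose arrays they were Hmgcs1, at 12.21 on WT replicate 2 against 12.57 to 12.61, and Rpl27a, at 8.72 on Neo2/+ replicate 2 against 8.93 to 8.97.

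For 12 named genes the effects of the heterozygotes differed in the direct test of Neo/+ against +/- (limma, adjusted p under 0.05). Neo/+ lay higher for Thg1l (2.60), Supt16 (1.69), Gm38983 (1.52), 6820431F20Rik (1.50), Pttg1 (1.47) and Ctsf (1.38). It lay lower for Amacr (-1.97), 2010315B03Rik (-1.85), Ang (-1.51), Stk25 (-1.45), Zfp40 (-1.39) and 1500015A07Rik (-1.36).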

How the results depend on the processing

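No count, named gene or called value reversed its direction. Medians of gene lists, each at most 0.0943 in size in the main comparison, changed sign in 28 of 627 values over 11 lists, among them pharyngeal endoderm (-0.01), cranial mesoderm (-0.01), posterior Hox (-0.05), Lin28 (0.01) and cell cycle genes (0.04) without +/- replicate 1. Leaving out 1 of the 8 arrays at a time gave 0 to 3518 called probe sets for the pooled comparison, 8 to 82 for Neo/+, 0 to 6142 for +/- and 10 to 5775 for Neo/+ against +/-, 140 to 506 genes that moved alike, and 0 to 51 called list members. The highest counts of the pooled, +/- and Neo/+ against +/- comparisons and of list members came without +/- replicate 2, which leaves the array that stands apart alone in its genotype and assumes that it varies like the other genotypes. The 506 came without WT replicate 2, which also gave 10 pooled calls and 9 for +/-, and the 140 came without Neo/+ replicate 1.

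The pooled comparison gave 13 calls without both arrays that stand apart, 4 with arrays centred on their medians, 2 with array weights or an intensity trend, and 0 with sex as a covariate or WT alone as full dose. Neo/+ gave 159 without both arrays, 190 with array weights, 22 with the 8 arrays alone, 14 with WT alone and 34 with Neo2/+ alone. For +/- there was 1 call without both arrays, with the replicate block and with Neo2/+ alone. Neo/+ against +/- gave 21 with the 8 arrays alone and 4 with array weights. Genes that moved alike numbered 101 with array weights, of which 66 were among the 243, and 426 with WT alone, of which 163 were. The share of them that lay higher was 67.7% without both arrays, 72.9% without Neo/+ replicate 1 and 84% in the main comparison. The replicate block gave 1 pooled call and 264 genes that moved alike, and it changed no call of a named gene. The pooled Tbx1 difference lay between -0.35 and -0.11 and was never called.

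With 2 arrays per genotype, differences near 0.5 are often missed, and low signals cannot be told from background.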

Other observations

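Heat shock genes, a list drawn up after values were seen, had a median difference of 0.10 over 21 genes in the pooled comparison, with none called. Hspa1b, a stress-inducible HSP70 gene, had 6.22 and 6.85 in WT, 6.73 and 6.59 in Neo2/+, 6.51 and 7.21 in Neo/+ and 8.01 and 7.62 in +/-. Both +/- arrays lay above all the others of the comparison, with a difference of 1.22 in +/- against 0.26 in Neo/+. Hspa1a, its near-identical copy, whose transcripts the probes may not separate, differed by 0.22 in +/-, so the level of Hspa1b is uncertain. The other members with the smallest p were Hsph1 (0.24) and Cryab (0.47).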
